A study of Mus musculus with 12 samples.

Results

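MHC class I molecules pair a heavy chain with the light chain beta-2 microglobulin and show peptides from inside the cell to T cells. B2m, which encodes the light chain, and 8 mouse heavy chain genes (H2-K1, H2-D1, H2-Q4, H2-Q6, H2-Q7, H2-T22, H2-T23 and H2-M3) are described here. They were found by gene name, as the rows carrying these 9 names among 25507 gene windows (25450 gene names). All 9 names were found, each in 1 window, and no measured value enters that rule, though the family was proposed with earlier results of these data known. IFN-gamma is a known inducer of this family: IRF1 acts through interferon elements beside the gene starts, and the transactivator NLRC5 acts through the nearby SXY module of X and Y boxes, where RFX, CREB/ATF and NF-Y factors bind. NF-kappa B binds a further site, the enhancer A of classical class I promoters. Some tumours repress class I genes through Polycomb, which makes the active and the Polycomb marks at these genes of interest in a pancreatic cancer line.

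CUT&Tag, in which a transposase tethered to an antibody tags DNA beside a chromatin mark, was run on KPC1199, a cultured mouse pancreatic ductal adenocarcinoma line whose strain is given as C57BL/6. The sources used here do not name its driver alleles. H3K4me3 marks active promoters, H3K27Ac active promoters and enhancers, H3K27me3 is set by Polycomb repressive complex PRC2, and ubiquitinated H2A, called H2A119Ub in the labels, is set by PRC1. Each mark was read in untreated cells not selected for PD-L1 ("untreated"), in unselected cells given 10 ng/ml IFN-gamma ("IFN-gamma all"), and in IFN-gamma treated cells that were PD-L1 high ("PD-L1 high"). The sources used here name neither the means of selection nor the length of treatment, and all cells came from 1 line.

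Each mark and state had 1 library (12 in all). The values therefore have no replicate error, and no p-value is given. Levels are normalised tags per 6000 bp window, a scale that is the same for every gene, with 95% exact Poisson intervals. Ratios are log2 values with the median kept window of the mark set to 0, with 95% Clopper-Pearson intervals. Both intervals describe counting error in single libraries, and PCR copies would widen them. A window was kept when its mean over the 3 libraries reached the median window of its mark, at 57.6 tags in H3K4me3, 46.3 in H3K27Ac, 12.8 in H3K27me3 and 41.1 in H2A119Ub. A ratio of at least 2-fold was counted as higher or lower. In bulk cells, a mark on a larger share of cells and more of the mark per cell cannot be told apart. The comparison of IFN-gamma all with untreated cells shares a library with each of the other comparisons. The H3K4me3 libraries held 7.13 to 8.93 M (mega) tags in gene windows and were the deepest. H3K27Ac had 2.01 to 2.36 M, H3K27me3 1.63 to 2.11 M and H2A119Ub 1.19 to 1.39 M.

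Heavy chain genes are close relatives, which bears on what a window can tell. The promoters of H2-Q6 and H2-Q7 were 97.7% identical over 260 aligned bases, and no other pair of members reached 90%. H2-K1 and H2-D1 followed at 89.5%. The sources used here do not say how reads that fit several copies were placed, so H2-Q6 and H2-Q7 are uncertain as separate genes. Some windows also carry a second name. The H2-D1 window had the values of H2-L to within 2.03 tags in every library, H2-Q6 had exactly those of H2-Q8, H2-Q7 those of H2-Q9 to within 1.51 tags, and H2-T22 those of H2-T9 to within 0.5 tags. H2-T22 also shared its window with Gm6034, which lies 219 bp away, to within 2.64 tags.

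The promoter letters are shown because IFN-gamma is the agent compared and class I promoters are known to carry interferon elements. For every member the stretch of 54 bases around its interferon element is printed 5′ to 3′ on the gene's own strand, from RefSeq promoters of GRCm38.p6 (mm10), which hold 250 bases before and 50 bases after the start chosen there for each gene. Capitals mark matches to an interferon element core or to the kappa B motif, in either orientation.
B2m: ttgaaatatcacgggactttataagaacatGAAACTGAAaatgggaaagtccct
H2-K1: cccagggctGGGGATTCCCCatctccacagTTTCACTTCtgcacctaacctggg
H2-D1: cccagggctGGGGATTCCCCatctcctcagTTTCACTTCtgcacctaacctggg
H2-Q4: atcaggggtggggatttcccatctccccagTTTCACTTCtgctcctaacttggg
H2-Q6: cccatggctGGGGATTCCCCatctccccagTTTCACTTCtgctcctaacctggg
H2-Q7: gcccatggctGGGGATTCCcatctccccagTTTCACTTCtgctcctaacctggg
H2-T22: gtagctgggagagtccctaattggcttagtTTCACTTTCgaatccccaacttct
H2-T23: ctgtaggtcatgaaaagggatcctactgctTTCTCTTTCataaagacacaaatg
H2-M3: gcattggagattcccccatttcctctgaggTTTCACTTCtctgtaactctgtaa

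In mm10 these stretches lie before the start that the RefSeq promoter table uses. For H2-K1 that start is inside the annotated gene: its promoter is chr17:34000298-34000597, while the gene (minus strand) begins at 34000619, so its stretch is upstream of the table's start only. The start used for H2-Q7 is also inside the gene: its promoter is chr17:35438905-35439204, while the gene (plus strand) begins at 35439140. The H2-Q7 stretch still lies before the gene. The B2m stretch is chr2:122147518-122147571 (plus strand), and the others are on chromosome 17. H2-K1 is at chr17:34000414-34000467 (minus strand), H2-D1 at chr17:35262914-35262967 (plus), H2-Q4 at chr17:35379434-35379487 (plus) and H2-Q6 at chr17:35424668-35424721 (plus). H2-Q7 is at chr17:35439012-35439065 (plus), H2-T22 at chr17:36042909-36042962 (minus), H2-T23 at chr17:36032801-36032854 (minus) and H2-M3 at chr17:37270103-37270156 (plus).

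Motifs were searched on both strands in the 300 bases of each promoter, and the share of all 27025 RefSeq promoters with a match is given beside each count. The interferon core GAANNGAAA matched in 6 of 9 members (7.56% of all promoters) and the core GAAANNGAA in the other 3, B2m, H2-T22 and H2-T23 (8.57%). Every member thus held an interferon core, against 14.9% of all promoters, where both cores can overlap each other. The kappa B motif GGGGANTCC matched in H2-K1, H2-D1, H2-Q6 and H2-Q7 (1.17%), and not in H2-Q4, H2-T22, H2-T23, H2-M3 or B2m. The Y box letters CCAAT were in all 9 (37.9%). The X2 box letters TGACGC were in H2-K1, H2-D1, H2-Q4 and H2-M3 (7.50%), and the related TGACGT in H2-Q4, H2-Q7 and H2-T22 (7.64%). The H2-Q4 match to TGACGC lay after the start, at positions 31 to 36 on the opposite strand, and the other TGACGC matches lay before the start. A gamma-activated site TTCNNNGAA was in H2-M3 only among the members (8.47%). An interferon core, kappa B and Y box together were found in 14 promoters of all (0.0518%), and H2-K1, H2-D1, H2-Q6 and H2-Q7 are 4 of these. A match is a description of these letters, and a motif that did not match may lie outside the window or differ in spelling.

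**Figure D1:**
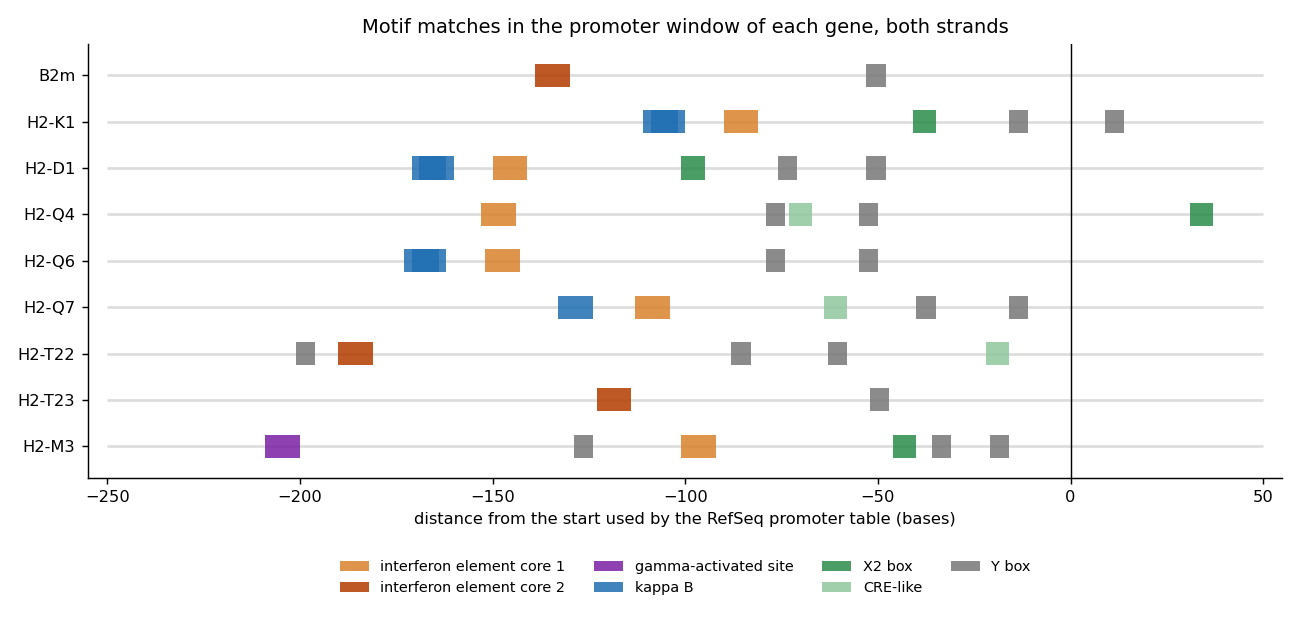
Position of each motif match along the promoter of the 9 members, in bases from the start used by the RefSeq promoter table (horizontal axis); each row is a gene and each coloured block a match on either strand. Every row has an interferon core, whose first base lies between 190 and 90 bases before the start, while kappa B blocks appear in 4 rows.

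In untreated cells the members can be described in 3 groups by H3K4me3 and H3K27me3. B2m, H2-D1, H2-T22, H2-T23 and H2-M3 had H3K4me3 of 282 to 740 tags and H3K27me3 of 14.2 to 48.2 tags. Tags of marks of different depth are not comparable, and by rank these genes were not all low in H3K27me3: H2-D1 was above 78.0% of windows in H3K27me3 and 77.0% in H3K4me3, H2-T22 above 69.3% and 65.8%, and B2m above 56.8% and 88.1%. H2-K1 and H2-Q4 were high in H3K27me3 and above the H3K4me3 filter. H2-K1 had 561 tags of H3K4me3 and 323 of H3K27me3, above 80.4% and 95.1% of all windows, and H2-Q4 had 138 and 154 tags, above 55.3% and 90.1%. H2-Q6 and H2-Q7, which encode chains of the Qa-2 group, had H3K27me3 of 282 and 409 tags and H3K4me3 of 31.9 and 33.4 tags, below the level filter of that mark. H2-Q6 and H2-Q7 were also below the H3K27Ac filter, so 7 of 9 members were kept in both active marks and all 9 in both Polycomb marks. This grouping was made after the values were seen.

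**Figure D2:**
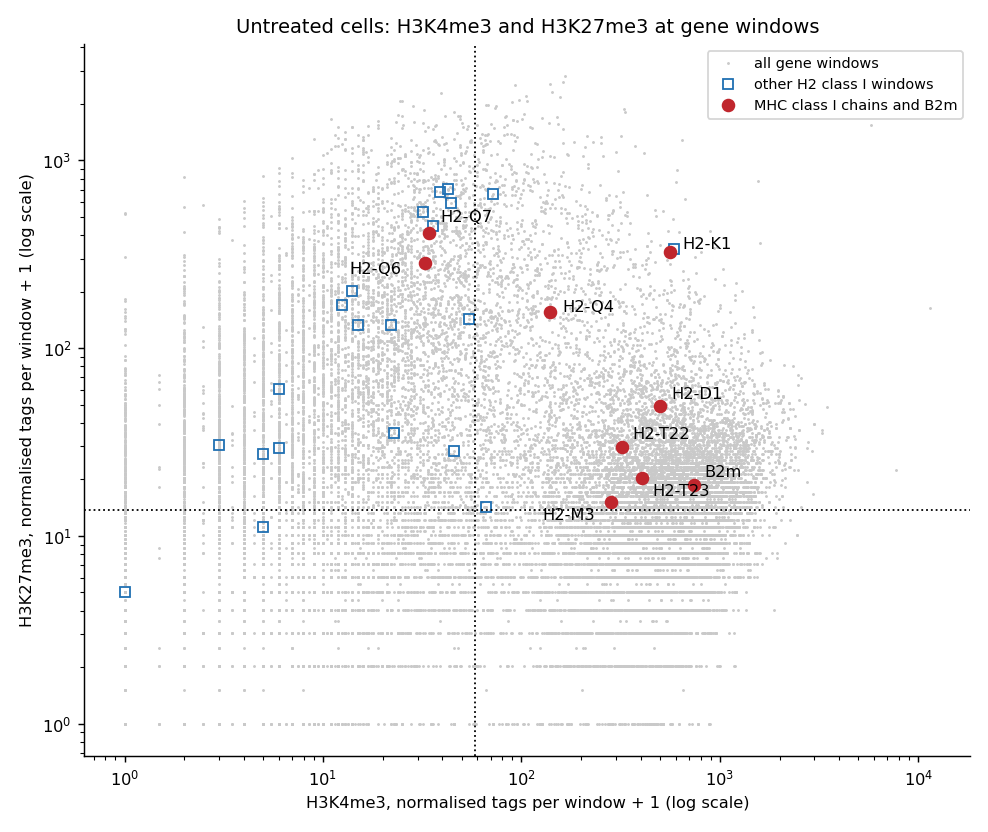
H3K27me3 (vertical axis) against H3K4me3 (horizontal axis) in untreated cells, both as normalised tags per window plus 1 on log scales, with 1 point per gene window; red points are the 9 members, blue squares other H2 class I windows, grey points all windows, and dotted lines the level filters. H2-K1 and H2-Q4 lie to the right of the H3K4me3 line at high H3K27me3, and H2-Q6 and H2-Q7 lie to its left.

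The order of H3K4me3 in untreated cells ran from B2m (740 tags) through H2-K1 (561), H2-D1 (500.3), H2-T23 (403), H2-T22 (320) and H2-M3 (282) to H2-Q4 (138), H2-Q7 (33.4) and H2-Q6 (31.9). The intervals of H2-K1 and H2-D1, of H2-T22 and H2-M3, and of H2-Q7 and H2-Q6 overlapped, and those of the other neighbours did not. H3K27me3 was highest in H2-Q7, then in H2-K1, H2-Q6 and H2-Q4, with only the intervals of H2-K1 and H2-Q6 overlapping among these. In H3K27Ac, B2m stood alone at the top with 178 tags (interval 152 to 206), and the members from H2-T23 (123 tags) down to H2-Q4 (59.9) formed a chain in which each overlapped its neighbour.

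**Figure D3:**
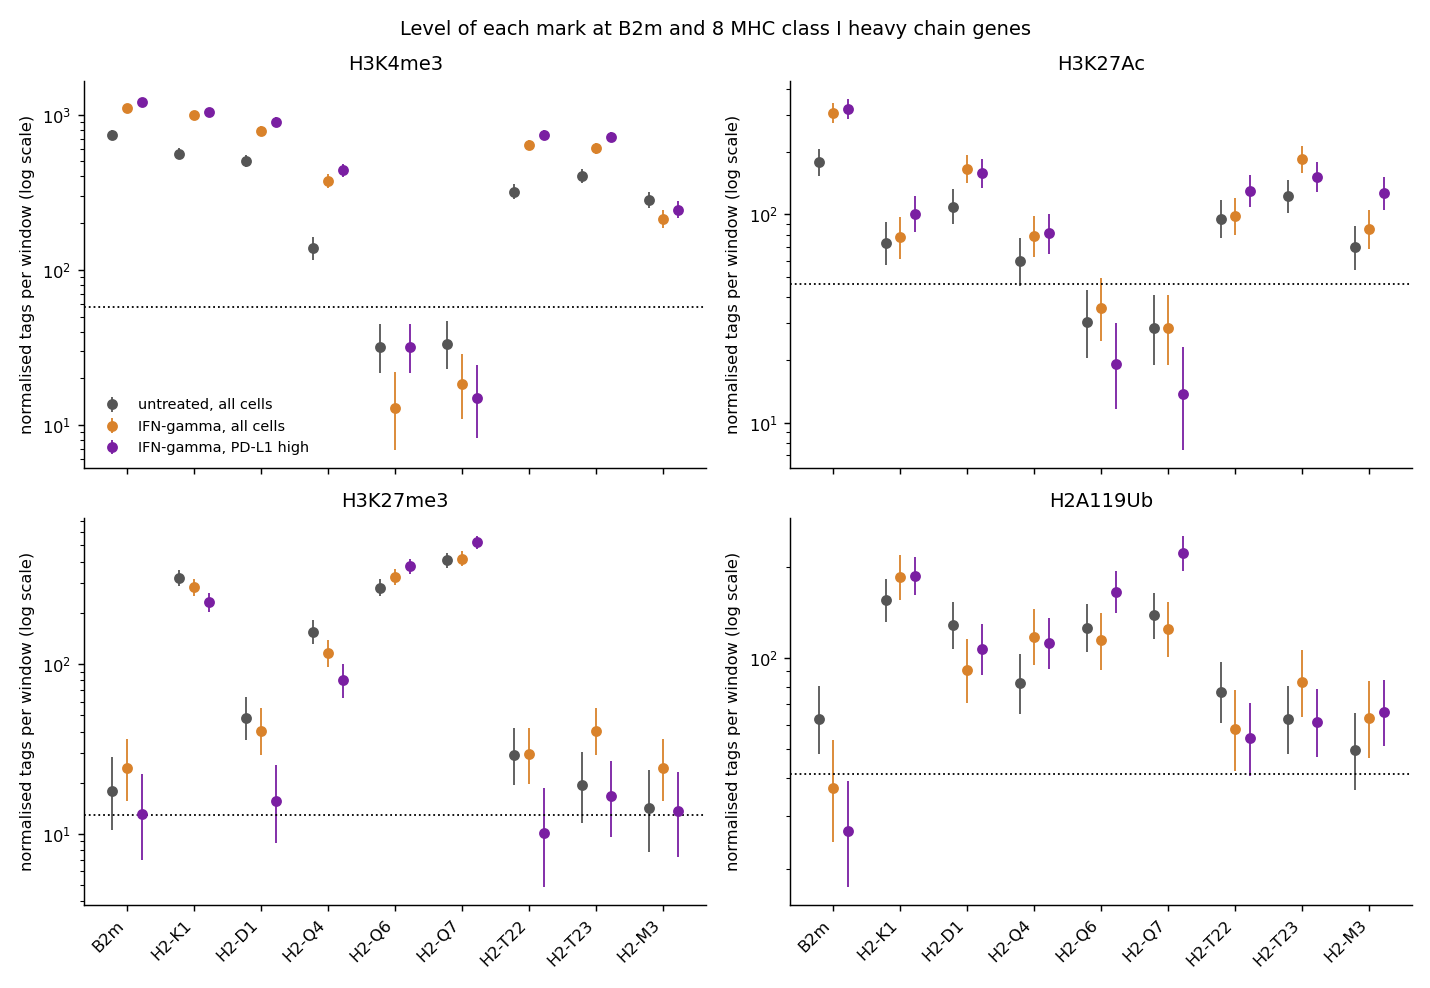
Level of the 4 marks at each member in normalised tags per window (log scale), with 1 point per library and bars for the 95% Poisson interval (counting error only); dotted lines are the level filters. In H3K4me3 the 2 IFN-gamma libraries lie above the untreated library at B2m, H2-K1, H2-D1, H2-Q4, H2-T22 and H2-T23 and below it at H2-M3.

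B2m lies at chr2:122147687-122153082 on the plus strand, apart from the heavy chains. Its H3K4me3 was 740 tags in untreated cells, 1099 in IFN-gamma all and 1201 in PD-L1 high cells. Both IFN-gamma libraries were above the untreated one without overlap of their intervals, and the log2 ratio of IFN-gamma all over untreated was 0.34 (interval 0.20 to 0.47). H3K27Ac at B2m was 178, 307 and 322 tags, again with both IFN-gamma libraries above the untreated one, with a log2 ratio of 0.53 (0.28 to 0.83). H2A119Ub went the other way, with 62.8 tags in untreated, 36.9 in IFN-gamma all and 26.6 in PD-L1 high cells. Its log2 ratio was -0.89 (-1.71 to -0.34) for IFN-gamma all over untreated and -1.12 (-2.05 to -0.64) for PD-L1 high over untreated. B2m passed the H2A119Ub filter of 41.1 tags only through the untreated library, as both IFN-gamma values lie below it, so its lower ratio is not read against other kept windows. H3K27me3 at B2m stayed between 13.1 and 24.3 tags, and the intervals of its 3 ratios included 0. The neighbours of B2m were not uniform: Spg11, 28253 bp away, had a log2 H3K4me3 ratio of 0.38 and H2A119Ub of 28.3, 52.7 and 47.03 tags, whereas Trim69, 7626 bp away, had an H3K4me3 ratio of -0.03.

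The classical heavy chains H2-K1 and H2-D1 present peptides to CD8 T cells. H3K4me3 at H2-K1 (chr17:33996012-34000619, minus strand) was 561, 995 and 1035 tags in untreated, IFN-gamma all and PD-L1 high cells. At H2-D1 (chr17:35263094-35267497, plus strand) it was 500.3, 790.1 and 903 tags. In both genes the IFN-gamma libraries stood clear of the untreated one, with log2 ratios of 0.59 (0.44 to 0.75) and 0.42 (0.26 to 0.59). H3K27Ac was 73.05, 77.5 and 101 tags at H2-K1, with a ratio of -0.16 (-0.64 to 0.33; 0.08 without centring), and 109, 165 and 157 tags at H2-D1, with a ratio of 0.34 whose interval reached 0. The difference between the genes was not tested, and their intervals overlap.

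H3K27me3 was lower in PD-L1 high than in untreated cells at both genes. H3K27me3 at H2-K1 was 323, 284 and 232 tags, a log2 ratio of -0.40 (-0.64 to -0.17) for IFN-gamma all over untreated and -0.35 (-0.60 to -0.10) for PD-L1 high over untreated, while its H2A119Ub was 155, 185 and 187 tags with a ratio of 0.00. At H2-D1, H3K27me3 was 48.2, 40.5 and 15.6 tags, so that the low value was in PD-L1 high cells, with a log2 ratio of -1.39 (-2.43 to -0.65) over untreated. H2A119Ub at H2-D1 was 128, 90.9 and 107 tags, a ratio of -0.70 (-1.18 to -0.30) for IFN-gamma all over untreated. H2-K1 can be set beside windows of its own kind: of the 737 windows in the highest 10% of H3K27me3 that also passed the H3K4me3 filter, 82.4% had an H3K27me3 ratio above 0 in IFN-gamma all over untreated, with a median of 0.22. Only 6 of these 737 windows had a lower ratio than H2-K1, and only 2 had a higher H3K4me3 ratio. These windows were set apart after the values were seen.

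A pseudogene beside H2-K1 had the opposite sign. H2-K2, 17221 bp from H2-K1, had H3K27me3 of 337, 516 and 458 tags and a log2 ratio of 0.39 for IFN-gamma all over untreated. Its H3K4me3 was 589, 741 and 682 tags, a ratio of 0.10 against 0.59 at H2-K1. On the other side lies Ring1, which encodes a PRC1 subunit, with H3K4me3 of 1040, 1231 and 1307 tags and a ratio of 0.01.

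H2-Q4, H2-Q6 and H2-Q7 are nonclassical genes of the Q region, and they did not share 1 pattern. H3K4me3 at H2-Q4 (chr17:35379617-35384674) was 138, 373 and 437 tags. Both IFN-gamma libraries were far above the untreated one, with a log2 ratio of 1.19 (0.91 to 1.49), and only 36 of 12754 kept windows had a higher value. H3K27me3 at H2-Q4 was lower in both IFN-gamma libraries, with 154, 116 and 79.97 tags and a ratio of -0.63 (-0.99 to -0.27) for IFN-gamma all and -0.81 (-1.23 to -0.42) for PD-L1 high over untreated. H3K27Ac (59.9, 78.99 and 81 tags) and H2A119Ub (82.3, 117 and 112 tags) were somewhat higher after IFN-gamma, and the intervals of their ratios included 0.

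At H2-Q6 (chr17:35424850-35430055) and H2-Q7 (chr17:35439140-35443773) the H3K27me3 ratio of IFN-gamma all over untreated was -0.02 and -0.19, with intervals that included 0. The level was 282, 325 and 378 tags at H2-Q6 and 409, 418 and 524 tags at H2-Q7, with the PD-L1 high library the highest at both. PD-L1 high over IFN-gamma all gave log2 ratios of 0.48 (0.26 to 0.70) and 0.58 (0.40 to 0.77), which is near the median of 0.46 of the 1814 windows in the highest 10% of H3K27me3 that were below the H3K4me3 filter. H2A119Ub was 126, 114 and 165 tags at H2-Q6 and 138, 125 and 221 tags at H2-Q7. Here the PD-L1 high ratios over IFN-gamma all, 0.64 (0.29 to 1.07) and 0.93 (0.61 to 1.33), were above the median of 0.22 of those windows, and 18 of the 1814 had a higher value than H2-Q7. That comparison uses the shallowest library of the mark. Over untreated cells the PD-L1 high ratios were 0.29 (-0.04 to 0.66) at H2-Q6 and 0.57 (0.28 to 0.92) at H2-Q7. There 654 of the 1814 windows were above H2-Q6 and 190 above H2-Q7.

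H3K4me3 at H2-Q6 was 31.9, 12.9 and 31.7 tags and at H2-Q7 33.4, 18.4 and 14.8 tags. Their log2 ratios of IFN-gamma all over untreated were -1.42 and -1.03, but all 12753 windows below the filter had a median of -0.68 and 32.2% of them were at least 2-fold lower. H3K27Ac was 30.4, 35.4 and 19.2 tags at H2-Q6 and 28.4, 28.4 and 13.7 tags at H2-Q7, lowest in PD-L1 high cells at both. The interferon core and kappa B letters printed for H2-Q6 are the same kind of match as in H2-K1 and H2-D1, whose H3K4me3 was far higher. H2-Q4 lay between them in H3K4me3 level. It has the interferon core, and its stretch reads ggggatttccc, which is close to the kappa B motif but not matched by the spelling searched. Whether these letters bear on H3K4me3 was not tested.

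H2-T22 and H2-T23 lie 4427 bp apart and belong to the T region. H2-T23 encodes the Qa-1 chain, a ligand of the NKG2A receptor of NK and T cells, and H2-T22 encodes a ligand of gamma delta T cells. H3K4me3 at H2-T22 (chr17:36037128-36042742) was 320, 638 and 740 tags, and at H2-T23 (chr17:36029977-36032701) 403, 609 and 721 tags. H2-T22 was below H2-T23 in untreated cells with separate intervals, and the intervals of the genes overlapped in both IFN-gamma libraries, with log2 ratios of 0.76 (0.57 to 0.96) and 0.36 (0.18 to 0.55). H3K27Ac was 95.4, 98.2 and 130 tags at H2-T22, highest in PD-L1 high cells, and 123, 184 and 151 tags at H2-T23, highest in IFN-gamma all. The PD-L1 high over IFN-gamma all ratio was 0.43 (0.05 to 0.84) at H2-T22 and -0.23 (-0.56 to 0.08) at H2-T23.

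H3K27me3 rested on few tags at both T genes, though by rank it was not low in every library. It was 28.9, 29.4 and 10.1 tags at H2-T22, with a ratio of -1.12 (-2.49 to -0.21) for PD-L1 high over IFN-gamma all. At H2-T23 it was 19.3, 40.5 and 16.6 tags, so that IFN-gamma all stood above both other libraries, with ratios of 0.78 (0.03 to 1.72) over untreated and -0.93 (-1.95 to -0.17) for PD-L1 high over it. H2A119Ub was 77.2, 58.0 and 54.2 tags at H2-T22, a ratio of -0.61 (-1.22 to -0.10) for IFN-gamma all over untreated. At H2-T23 it was 62.8, 83.0 and 61.3 tags, and the intervals of its ratios included 0.

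H2-M3 presents peptides that begin with formylated methionine, as those of bacteria and mitochondria do, and it was the exception among the heavy chains above the H3K4me3 filter. Its H3K4me3 (chr17:37270234-37274485) was 282 tags in untreated, 214 in IFN-gamma all and 244 in PD-L1 high cells. Both IFN-gamma libraries were below the untreated one, but the level intervals of PD-L1 high and untreated cells overlapped. The log2 ratio of IFN-gamma all over untreated was -0.63 (-0.90 to -0.37), and -0.40 without centring. That of PD-L1 high over untreated was -0.51 (-0.77 to -0.26), and -0.20 without centring. The H2-M3 promoter holds the interferon core, an X2 box, a Y box and the only gamma-activated site of the 9 members. H3K27Ac was highest in PD-L1 high cells, with 69.5, 85.1 and 127 tags and a PD-L1 high over IFN-gamma all ratio of 0.59 (0.21 to 1.04), which 227 of 12758 kept windows exceeded. H3K27me3 (13.6 to 24.3 tags) and H2A119Ub (49.4 to 65.9 tags) had ratios whose intervals included 0. H2-M3 lies among olfactory receptor genes (Olfr97, Olfr98, Olfr99 and Olfr101), whose H3K4me3 did not exceed 11.95 tags in any library.

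**Figure D4:**
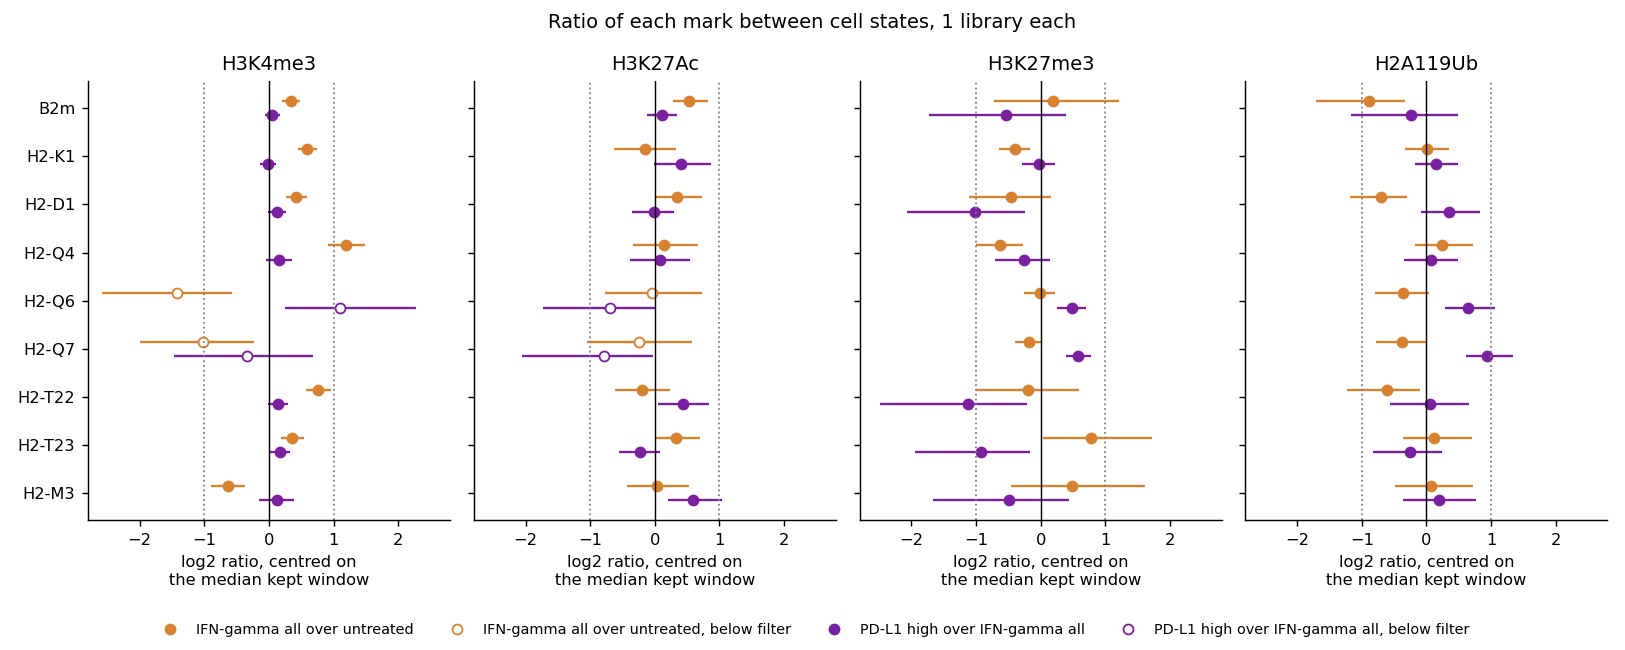
Centred log2 ratio of each mark (horizontal axis, 1 panel per mark) at the 9 members for IFN-gamma all over untreated (orange) and PD-L1 high over IFN-gamma all (purple), with 95% Clopper-Pearson intervals (counting error only); open points are windows below the level filter and dotted lines 2-fold. Orange H3K4me3 points lie right of 0 for 6 of the 7 kept members, while their purple points lie within 0.17 of 0.

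Counted over the family, H3K4me3 of IFN-gamma all over untreated had an interval above 0 in 6 of the 7 kept members and below 0 in 1, H2-M3. Over all kept windows 20.3% of intervals were above 0 and 20.2% below. The median was 0.42, where the middle 50% of all kept windows ran from -0.17 to 0.13. Only H2-Q4 was at least 2-fold higher and none was 2-fold lower, where 0.361% and 1.03% of all kept windows were. PD-L1 high over IFN-gamma all gave ratios from -0.02 to 0.17, none of them 2-fold, against a background of 0.00784% higher and 0.0784% lower. Of these only the ratio of H2-T23 had an interval above 0 (0.17, 0.01 to 0.33), where 10.8% of all kept windows did. In PD-L1 high over untreated, H2-Q4 was again the only member at least 2-fold higher (1.34; background 0.47% higher and 2.09% lower), and the median was 0.54. The same 6 members had intervals above 0 and H2-M3 below, against 21.6% and 21.3% of all kept windows.

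H3K27Ac had no kept member past 2-fold in any comparison, and H2-Q7, below the filter, had -1.04 in PD-L1 high over untreated. The background for IFN-gamma all over untreated was 0.251% higher and 0.643% lower. The intervals of B2m and H2-T23 were above 0, as were 15.9% over all kept windows. The median of the 7 kept members was 0.13. For PD-L1 high over IFN-gamma all the background was 0.0784% higher and 0.196% lower, with intervals above 0 at H2-T22 and H2-M3 and in 9.5% of all kept windows. For PD-L1 high over untreated it was 0.392% higher and 1.77% lower, all 7 ratios were above 0 (0.09 to 0.64), and the intervals of B2m and H2-M3 were above 0, against 17.3% of all kept windows.

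For H3K27me3, no member was past 2-fold in IFN-gamma all over untreated (background 3.79% higher and 4.51% lower), 2 intervals were below 0 (H2-K1 and H2-Q4) and 1 above (H2-T23). Over all kept windows 12.6% of intervals were below 0 and 15.4% above. PD-L1 high over IFN-gamma all had 2 members at least 2-fold lower, H2-D1 and H2-T22 (background 12.6% lower and 1.37% higher). H2-T22 had 10.1 tags in PD-L1 high cells, below the filter of 12.8 tags, and was kept through the untreated and IFN-gamma all libraries. Its lower ratio and interval are therefore not read against shares of kept windows. Intervals were below 0 at H2-D1, H2-T22 and H2-T23 and above 0 at H2-Q6 and H2-Q7. Over all kept windows 18.1% were below and 23% above. Among kept windows that also passed the H3K4me3 filter, 22.5% were at least 2-fold lower and the median was -0.47, close to the median of -0.49 over the 9 members. Quantile normalization left 0 members at least 2-fold lower here, as did centring on the windows that also passed the H3K4me3 filter. PD-L1 high over untreated had H2-D1 and H2-T22 at least 2-fold lower (background 8.88% lower and 2.54% higher), and 1 of them under quantile normalization. For the same reason, H2-T22 is not read against the shares of kept windows in this comparison. Here intervals were below 0 at H2-K1, H2-D1, H2-Q4 and H2-T22 and above 0 at H2-Q6 and H2-Q7, against 12.2% and 23.2% of all kept windows.

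H2A119Ub had intervals below 0 at H2-D1 and H2-T22 in IFN-gamma all over untreated, where 10.5% of all kept windows had one. The interval of B2m was also below 0, but it is not set against this share, since B2m passed the filter only through the untreated library. No member was past 2-fold (background 0.408% higher and 0.894% lower). That IFN-gamma library was the shallowest of the mark. In PD-L1 high over IFN-gamma all none was past 2-fold (0.361% higher, 0.517% lower), and H2-Q6 and H2-Q7 had intervals above 0, as did 10.1% of all kept windows. In PD-L1 high over untreated, which does not use the shallow library, B2m was the only member at least 2-fold lower. The background was 0.306% lower and 0.227% higher, from which nothing is read for B2m, since it passed the filter through the untreated library. The interval of H2-T22 was also below 0 (-0.54, -1.13 to -0.07), while that of H2-D1 included 0 (-0.33, -0.74 to 0.04). The interval of H2-Q7 was above 0 (0.57, 0.28 to 0.92). Over all kept windows 10.5% of intervals were above 0 and 9.68% below.

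Of 29 H2 class I windows placed on the chromosome, 21 are not members, and only 4 of those 21 passed the H3K4me3 filter while 18 passed the H3K27me3 filter. H2-Q6 and H2-Q7 were below that H3K4me3 filter, as were most of the 21, and H2-K2, with 589 tags untreated, was above every heavy chain member in that state. Its interval (543 to 639) overlapped that of H2-K1 (516 to 609) there. In IFN-gamma all, H2-K1 was higher, with 995 tags against 741 at H2-K2. By the mean of the 3 libraries, H3K27me3 was highest at the pseudogene H2-Bl (664, 998 and 1154 tags), at H2-Q1 (678, 896 and 1190 tags) and at H2-T-ps (592, 889 and 1064 tags), each highest in PD-L1 high cells, while H2-T3 led in untreated cells (703 tags). H2-T10 and H2-T24 were chosen after their values were seen, as the kept windows, outside those of the members, that were past 2-fold upward in H3K4me3 and in H3K27Ac respectively. The pseudogene H2-T10 had H3K4me3 of 53.8, 231 and 286 tags, a log2 ratio of 1.83, with little difference in H3K27me3 (142, 161 and 133 tags). Its untreated H3K4me3 is below the filter of 57.6 tags, so H2-T10 was kept through the IFN-gamma libraries, where it is high. Its ratio is not read against other kept windows. H2-T24, 9177 bp from H2-T23, had H3K27Ac of 62.9, 170.1 and 188 tags, a ratio of 1.13, while its H3K4me3 was 65.7, 70.02 and 70.2 tags.

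**Figure D5:**
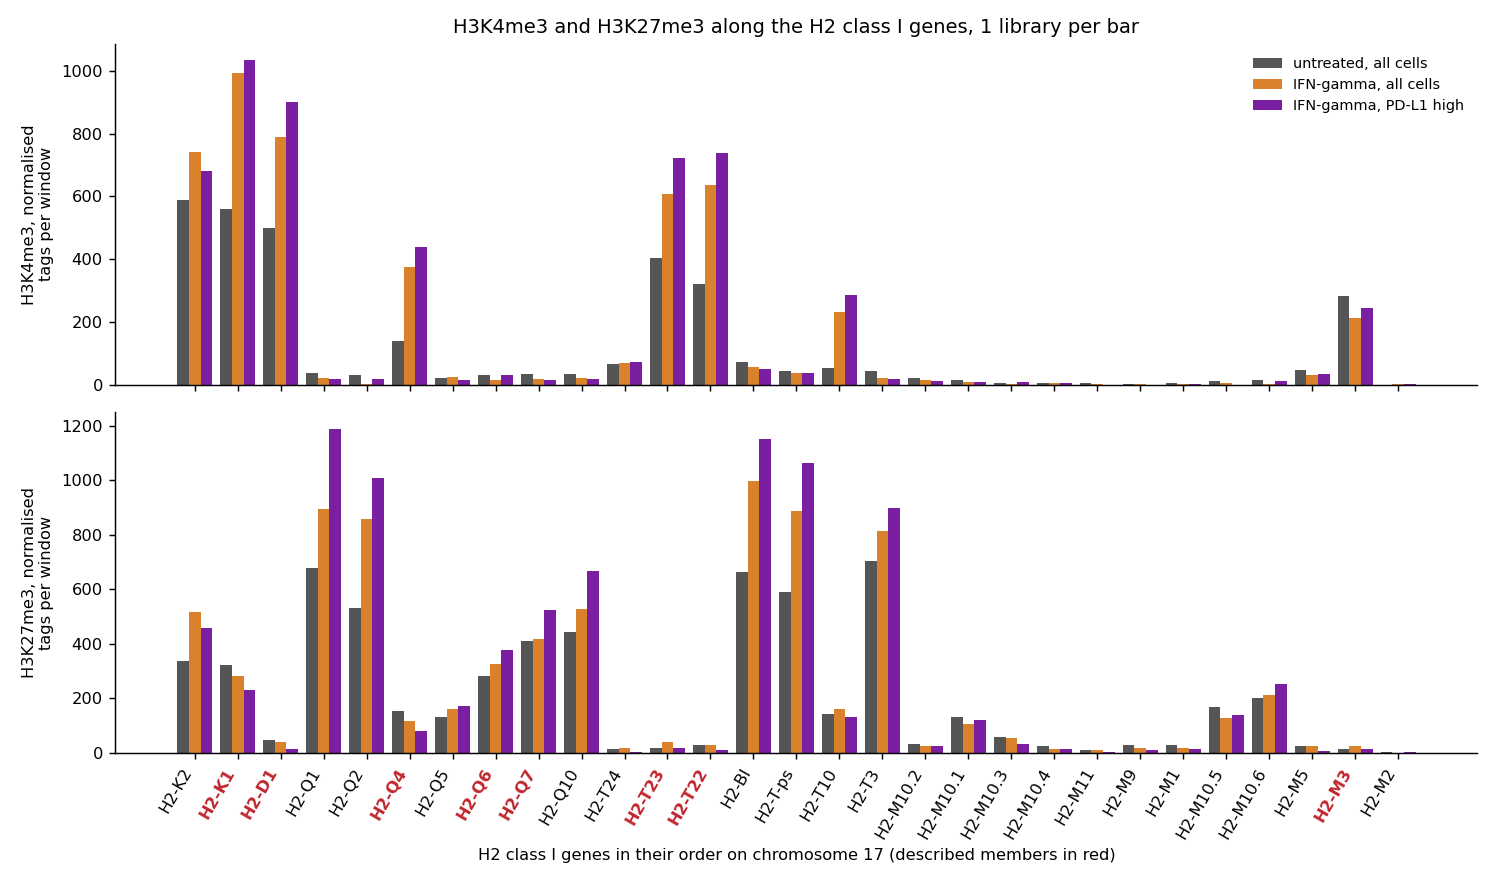
H3K4me3 (upper panel) and H3K27me3 (lower panel) in normalised tags per window at 29 H2 class I windows in their order on chromosome 17, with 1 bar per library and members named in red. H3K4me3 bars are tall at H2-K2 and at all members but H2-Q6 and H2-Q7. In the IFN-gamma libraries H2-T10, not a member, stands above H2-M3. H3K27me3 bars rise around H2-Q1, H2-Q2, H2-Bl, H2-T-ps and H2-T3.

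The genes that load and regulate class I included larger H3K4me3 ratios than any member. Of 15 genes on this list, 14 passed the H3K4me3 filter and 4 were at least 2-fold higher in IFN-gamma all over untreated (0.361% of all kept windows), with a median of 0.25. Psmb8, an immunoproteasome subunit, had 218 and 882 tags in untreated and IFN-gamma all (1.77, 1.57 to 2.003). Tap1, which carries peptides into the endoplasmic reticulum, had 656 and 1919 tags (1.31, 1.19 to 1.44), and its neighbour Psmb9 nearly the same values (659 and 1917 tags, 1.304), as windows of adjacent genes can share DNA. H3K27Ac was at least 2-fold higher in 1 of 14 (0.251% of all kept windows), Psmb8 (1.56), followed by Tap1 and Psmb9 (0.98 each). Psmb8 had 40.1 tags of H3K27Ac in untreated cells, below the filter of 46.3, and 151 in IFN-gamma all. It was thus kept through treated cells, where it is high, and its ratio is not read against that share. In H3K27me3, 2 of 11 were at least 2-fold lower and 1 higher (4.51% and 3.79% of all kept windows). Nlrc5, the class I transactivator, had 243 and 43.1 tags (-2.66, -3.22 to -2.24), Psmb8 121 and 48.6 tags (-1.50) and the chaperone Calr 12.2 and 32.4 tags (1.06). The untreated value of Calr is below the filter of 12.8 tags, so its higher ratio is not read against the share of kept windows. Nlrc5 H3K4me3, at 22.4 and 9.93 tags, was below the filter. In H2A119Ub none of 12 was past 2-fold, and Tapbpl (-0.84), Tap2 (-0.61) and Pdia3 (0.46) had the largest ratios. In PD-L1 high over IFN-gamma all, H3K27me3 was at least 2-fold lower in 7 of 11 of these genes, where 12.6% of all kept windows and 22.5% of those also above the H3K4me3 filter were. The median was -1.11, and the 15 genes summed to 603 tags in IFN-gamma all and 272 in PD-L1 high cells. The same count for the members fell to 0 under quantile normalization and the added centring. Kept genes can lie below the filter in PD-L1 high cells, so nothing more is read from this count. Of the 7 class I-like genes outside the H2 members, 4 passed the H3K4me3 filter. In IFN-gamma all over untreated none of these had an H3K4me3 ratio above 0, and the median was -0.78. At least 2-fold lower was 1 of the 4, where 1.03% of all kept windows were. Its level in each library is not given here, so nothing is read from this count. In H3K27me3 for PD-L1 high over IFN-gamma all, 5 were kept, none was at least 2-fold lower, and the median was -0.02.

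By their ratios over untreated cells in all 4 marks (8 values), the members most alike were H2-D1 and H2-T22 (root mean square difference 0.29 log2), then H2-K1 and H2-Q4 (0.41). Among 10627 windows that passed the H3K4me3 and H3K27Ac filters, Irf9 and Rnf41 (0.25 each), Iws1, Chtf8 and Utp4 (0.28 each) were nearest to B2m. Plcb1 (0.19), Sgsm2 (0.20), Twistnb, Rasa2 and Mrfap1 (0.21 each) were nearest to H2-K1. These are distances over 3 libraries a mark, given as a description.

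Marker genes and PD-L1 were read as checks of the labels. Of the epithelial and ductal markers 8 of 9 passed the H3K4me3 filter, with summed levels of 5028, 6192 and 6012 tags in the 3 states, against 1 of 10 leukocyte markers (460, 513 and 432 tags) and 3 of 8 fibroblast and endothelial markers (731, 673 and 732 tags). No leukocyte marker was at 0 in the untreated or PD-L1 high library and 1 was at 0 in IFN-gamma all, and 1 fibroblast or endothelial marker was at 0 in each state. Cd274, which encodes PD-L1, had H3K4me3 of 229, 650 and 786 tags.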

How the data were processed

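The authors deposited 1 table of signal per gene window and library, in a scale of their own. Bowtie2 2.4.2, HOMER, MACS2 2.2.7.1 and mm10 are named per the submitters' processing notes, with no role or order. Window placement, duplicate removal and scaling are not stated there. Values times 6000 fell on steps of 0.5 tags per library (1 tag worth 0.989 to 1.03, and 1.32 in the H2A119Ub library of IFN-gamma all), at 99.9955% or more of values within 10% of a step, so a window of 6000 bp was inferred. The pseudocounts added for ratios, the 10th percentile of values above 0, were 1.99 (H3K4me3), 5.06 (H3K27Ac), 2.03 (H3K27me3) and 8.18 tags (H2A119Ub). They draw low ratios towards 0, and the intervals omit them. Centring removed shifts of 0.22 to 0.24 for IFN-gamma all over untreated, -0.26 to 0.07 for PD-L1 high over IFN-gamma all and -0.13 to 0.31 for PD-L1 high over untreated. Scripts (Python 3.11.15, pandas 2.3.3, scipy 1.17.1, Biopython 1.88) were tested on simulated data.

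The members, gene lists and motifs were chosen with earlier results of these data known. Named by rule were all members, Nlrc5 and Cd274, the 3 loading genes with the largest ratio per mark, the 3 other H2 windows highest in H3K4me3 (H2-L, H2-K2 and H2-T9) and in H3K27me3, the 5 nearest patterns to B2m and H2-K1, and flanking genes. The comparisons use the 3 libraries of each mark, and were repeated under 6 other settings of centring, scaling, pseudocount, filter and near identical members, and 1 added after seeing the data. Symbols matched RefSeq (GRCm38.p6) for 25098 windows.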

Additional observations from a re-analysis of the deposited data

How the results depend on the processing

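No paired analysis was possible because each mark and state has 1 library, and no replicate could be left out. No member ratio past 2-fold changed sign under any alternative, and the only median that did was that of H3K27me3 for IFN-gamma all over untreated (-0.19, and 0.03 without centring). Without centring, the median H3K4me3 ratio was 0.66 for IFN-gamma all over untreated and 0.85 for PD-L1 high over untreated, where 2 members were then at least 2-fold higher. Without the level filter, which adds H2-Q6 and H2-Q7 and moves the centre, these medians were 0.59 and 0.81. H3K4me3 counts without the filter were 1 lower for IFN-gamma all over untreated, 1 higher for PD-L1 high over IFN-gamma all, and 2 higher and 1 lower for PD-L1 high over untreated, and 1 member was lower in H3K27me3 for PD-L1 high over IFN-gamma all. Quantile normalization gave 0 members lower in H3K27me3 for PD-L1 high over IFN-gamma all and 1 for PD-L1 high over untreated. Centring on windows above the H3K4me3 filter, added after seeing the data, gave 0 lower and 1 higher in H3K27me3 and 1 higher in H2A119Ub for PD-L1 high over IFN-gamma all. A pseudocount of 1 tag gave 1 member lower in H2A119Ub for IFN-gamma all over untreated. The cause of the other differences was not tested.

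Of 108 member ratios, 10 changed sign without centring, 7 under quantile normalization, 7 without the filter, 7 when centred on the highest 10% of windows and 1 with the pseudocount of 1 tag, as did 5 of 81 under the added centring. The H3K27me3 ratios of PD-L1 high over untreated changed sign at H2-Q6 (-0.06) when centred on the highest 10% of windows, and at H2-Q7 there (-0.13) and under quantile normalization (-0.16). Those of H2-K1 and H2-Q4 for IFN-gamma all over untreated kept their sign under every setting, from -0.62 to -0.18 and from -0.84 to -0.41, but for PD-L1 high over IFN-gamma all they changed sign under the added centring (from -0.03 to 0.44 at H2-K1 and from -0.26 to 0.20 at H2-Q4). H2A119Ub at B2m for PD-L1 high over untreated kept its sign under every setting (-1.30 to -1.03). Few tags limit some H3K27me3 ratios: 10.1 to 48.2 tags stand behind each value at B2m, H2-D1, H2-T22, H2-T23 and H2-M3.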
